A study of Mus musculus with 8 samples.

Results

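Genes of cell division were examined in whole hearts of wild-type mice. The set holds 38 genes chosen by name for their roles in DNA replication, mitosis and cytokinesis, and all 38 were among the 17911 genes of the deposited table. Of these, 10 act in S phase (Cdc45, Mcm2 to Mcm7, Pcna, Rrm2 and Tyms), and the other 28 act in G2, mitosis or cytokinesis and are called mitotic here. The members were chosen by name, with earlier results of these data known.

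RNA was sequenced from single hearts of 4 female and 4 male C57Bl6/J wild-type mice, with no treatment named for either sex. Age is given as 4 weeks in the design and as 4 to 6 weeks in the extraction protocol, and no age is given for single hearts. The hearts are called female 1, 2, 3 and 4 and male 1, 3, 4 and 5, after their replicate numbers. All 8 carry the same batch label. Reads assigned to genes ran from 51.7 M to 75.7 M per heart, with male 3 and male 4 the deepest and female 4 and male 5 the shallowest, where the labels state at least 80 M reads per sample. The 8 cardiomyocyte markers of the tissue check were all present, at a summed level of 4.56e+06 to 5.15e+06 normalized reads per heart. A normalized read count is the number of reads of a gene divided by 1 size factor per heart.

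A dividing cell first copies its DNA. In S phase the MCM2 to MCM7 ring and CDC45 form the helicase that opens the double strand, PCNA clamps the polymerase to it, and RRM2 and TYMS supply nucleotides. In G2 and mitosis, CDK1 with cyclins A and B, the Polo and Aurora kinases and the spindle motors condense, align and separate the chromosomes, and the midzone proteins then cut the cell apart. Mouse heart muscle cells largely leave the cell cycle soon after birth, while endothelial cells, fibroblasts and resident macrophages of the heart can still divide. Transcripts of the first group are known targets of E2F factors. Those of the second are known to be controlled through the CHR element by the DREAM and MuvB complexes with B-MYB and FOXM1, often beside CCAAT boxes bound by NF-Y.

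Promoters of the mitotic members mostly held the CHR word, and E2F words were found mainly among those of the S phase members. Promoter windows of 300 bases (most before the start site and the last 50 from it) came from RefSeq, build GRCm38.p6, for 9 of the 10 S phase and 23 of the 28 mitotic members. The windows below, 170 bases each and 5′ to 3′ on the strand of the gene, are shown because they hold the words by which the groups differ: Hmmr, the one member that passed the test between the sexes, and the highest-expressed members of either group that hold the word. In the mitotic windows, capitals mark the CHR word (TTTGAA or the variant TTCGAA) and the CCAAT box (CCAAT) on either strand, so that ATTGG is a CCAAT box read on the other strand. In the S phase windows, capitals mark E2F words (TTTCGCGC, TTTGGCGC, TTTCCCGC or TTTGCCGC, either strand).
Hmmr: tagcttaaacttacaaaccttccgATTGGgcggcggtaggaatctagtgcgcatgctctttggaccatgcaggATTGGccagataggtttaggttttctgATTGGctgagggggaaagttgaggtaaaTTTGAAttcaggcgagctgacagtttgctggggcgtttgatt
Cenpf: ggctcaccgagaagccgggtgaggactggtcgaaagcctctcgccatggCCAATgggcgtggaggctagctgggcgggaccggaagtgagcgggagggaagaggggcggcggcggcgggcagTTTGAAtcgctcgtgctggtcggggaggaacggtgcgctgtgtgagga
Cdc20: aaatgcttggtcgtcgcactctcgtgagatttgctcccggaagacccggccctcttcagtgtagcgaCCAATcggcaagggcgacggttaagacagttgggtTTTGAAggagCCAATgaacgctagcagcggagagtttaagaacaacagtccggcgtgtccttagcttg
Mcm7: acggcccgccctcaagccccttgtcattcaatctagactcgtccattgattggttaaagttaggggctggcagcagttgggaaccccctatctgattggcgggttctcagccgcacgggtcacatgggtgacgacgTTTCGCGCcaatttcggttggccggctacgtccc
Mcm6: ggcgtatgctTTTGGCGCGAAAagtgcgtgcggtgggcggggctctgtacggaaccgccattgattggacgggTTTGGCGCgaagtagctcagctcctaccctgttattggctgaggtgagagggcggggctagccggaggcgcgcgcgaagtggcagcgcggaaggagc
They lie on the minus strand at chr11:40733388-40733557, chr1:189688037-189688206, chr4:118437294-118437463, chr5:138171834-138172003 and chr1:128359656-128359825, in that order. The CHR word starts at base 9 of the transcript in Hmmr, at base 3 in Cenpf and 18 bases before the start in Cdc20. In Mcm6, TTTGGCGC overlaps a TTTCGCGC on the other strand, and in Mcm7 the E2F word runs into a CCAAT box.

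TTTGAA stood in 20 of the 25 mitotic windows (80%), in 2 of the 10 S phase windows (20%) and in 17.9% of all 32851 promoters of this length. Among the 15652 promoters of genes in the deposited table the share was 12.4%. An E2F word stood in 4 of the 10 S phase windows (40%), in 2 of the 25 mitotic windows (8%) and in 2.26% of all promoters, or 3.54% of those of genes in the table. CCAAT was common in both groups, in 9 of 10 S phase and 22 of 25 mitotic windows against 37.4% of all promoters. The variant TTCGAA stood in 3 mitotic windows, 1 S phase window and 1.56% of all promoters. Some genes have more than 1 window, and a match describes letters only. In lists of further genes of the same processes, TTTGAA stood in 30 of 48 windows of other mitotic genes (62.5%) and an E2F word in 15 of 47 windows of other S phase genes (31.9%).

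S phase members were expressed at higher levels than mitotic members. Levels between genes are given as reads per kilobase of merged exons, scaled to the assigned reads of the library (RPKM), as means over the 8 hearts. The S phase members ran from 0.369 (Tyms) to 14.0 (Pcna), with a median of 1.501. The mitotic members ran from 0.0574 (Ttk, the checkpoint kinase MPS1) to 1.99 (Cenpf, a large kinetochore and microtubule protein), with a median of 0.287. The median over all genes of the table was 2.22. Cenpf stood apart within its group, since the next mitotic member, Cdc20, the activator of the anaphase-promoting complex, was at 0.963. The proliferation marker Mki67 was at 0.579, the topoisomerase gene Top2a at 0.478 and Cdk1 at 0.259. Single hearts held from 11 reads (Ttk) to 2530 reads (Pcna) of a member, so the low genes carry a larger counting error. All 38 members passed the filter on low values, which removed no gene of the table.

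The S phase members did not move as one group over the hearts. Cdc45, which joins the MCM ring to make the active helicase, was at 248, 243, 239.6 and 206 normalized reads in female 1 to 4 and at 199, 179, 177 and 179.8 in male 1, 3, 4 and 5. Every female heart was above every male heart. Female hearts averaged 234 ± 19.3 and male hearts 184 ± 10.003 (SD, n = 4 per sex), with a log2 fold change 0.35, SE 0.092, limma adjusted p = 0.0950, so it did not pass. Mcm7, a subunit of the same ring, also had no overlap: 821, 907, 822 and 786 in females against 680.0, 754, 722 and 696 in males, in the same order of hearts. Its means were 834 ± 51.5 and 713 ± 32.2 (log2 fold change 0.22, SE 0.057, limma adjusted p = 0.0859). The clamp gene Pcna was the steadiest member, at 2234, 2194, 2219.9 and 2205 in females and 2046, 2166, 2156 and 2079 in males, again without overlap but with a log2 fold change of only 0.068 (95% interval -0.0045 to 0.14, limma adjusted p = 0.344). In the authors' deposited table Cdc45 and Mcm7 were higher in females at adjusted p-values of 0.0344 and 0.0266. Cdc45 and Mcm7 share exon bases with neighbours on the opposite strand, 5.96% of its exon length with Ufd1 for Cdc45, and 7.25% with Ap4m1 and 1.45% with Cops6 for Mcm7, and no source says whether reads were counted by strand. Ufd1, Cops6 and Ap4m1 had 2663, 6730 and 759 normalized reads on average and log2 fold changes of -0.038, -0.0052 and 0.077.

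The other MCM subunits differed among themselves. Mcm5 was at 287, 228, 259 and 257 in females and 271, 304, 322 and 276 in males, lowest in female 2 and highest in male 4, and followed the mitotic genes over the hearts. Mcm2 was at 565, 523, 552 and 549 in females and 578, 615, 568 and 606 in males, just without overlap, with a log2 fold change of -0.11. Mcm3, Mcm4 and Mcm6 overlapped between the sexes, with log2 fold changes of -0.072, 0.020 and -0.029, and the last 2 changed sign under some alternatives. Subunits of 1 ring thus ran from -0.19 (Mcm5) to 0.22 (Mcm7). Of the nucleotide genes, Tyms, which makes thymidylate, was at 135, 129.9, 149 and 108 in females and 133, 167, 193 and 146 in males, and Rrm2, a subunit of ribonucleotide reductase, ran from 171 to 184 in females and from 165 to 204 in males. Both were highest in male 4 and neither passed (limma adjusted p = 0.342 and 0.621). Pcna-ps2, a processed copy of Pcna, was also counted, at 18.8 normalized reads on average, so Pcna reads may be shared with it.

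**Figure D1:**
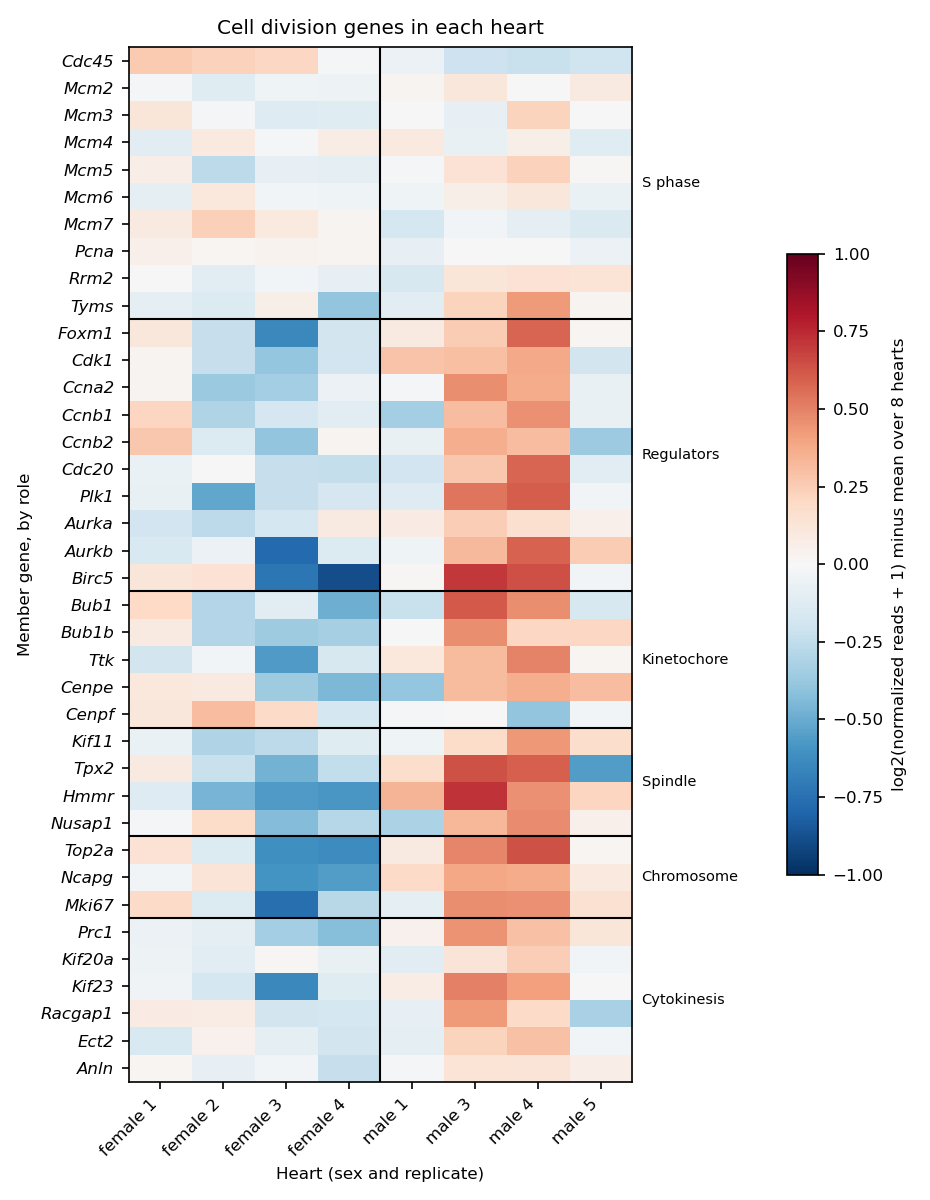
Heat map of the 38 members (rows, grouped by role) in the 8 hearts (columns), as log2(normalized reads + 1) minus the mean of the gene over the hearts. Mitotic members are high (red) in male 3 and male 4 and low (blue) in female 3 and female 4, with exceptions. These are Cenpf (high in female 3, not high in male 3 or male 4), Aurka and Ccnb2 (not low in female 4) and Kif20a (not low in female 3). S phase members show smaller and mixed differences.

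Mitotic members were highest in 2 male hearts and lowest mostly in 2 female hearts. Of the 28, 27 had their highest value in male 3 (14) or male 4 (13), and 19 had their lowest in female 3 or female 4. In bulk RNA, fewer cells of a type and less RNA per cell cannot be told apart. Hmmr, whose product binds hyaluronan and helps to build the spindle, was at 32.0, 25.2, 23.4 and 23.1 in females and 44.8, 58.5, 48.6 and 41.0 in males. Every female heart was below every male heart. Its means were 25.9 ± 4.14 and 48.2 ± 7.51 (SD, n = 4 each), and it fell by 0.87 on the log2 scale (SE 0.19, limma adjusted p = 0.0498). It was the one member of the 38 that passed, and 0.687% of all genes tested were called lower in females. The call lay at the threshold and held under 6 of 18 alternatives, with adjusted p-values from 0.0314 to 0.358. It ended without female 2, 3 or 4 (adjusted p = 0.129, 0.106 and 0.101 from limma) and without male 1, 3 or 4 (0.0893, 0.156 and 0.133). At 0.106 RPKM Hmmr was among the lowest members. 

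The other spindle genes had negative fold changes and did not pass. Kif11, the motor that pushes the spindle poles apart, was at 116, 98.9, 101 and 112 in females and 118, 139, 165 and 138 in males, without overlap (log2 fold change -0.37, SE 0.12, limma adjusted p = 0.166). Tpx2, which activates Aurora A on the spindle, was at 113, 90.2, 75.6 and 88.9 in females and 119, 164, 160.2 and 71.2 in males, with male 5 below every female heart. Without male 5 it passed, at a log2 fold change of -0.68 and a limma adjusted p = 0.0434, where 1.55% of all genes were called lower and 1.33% higher, and it passed in no other alternative. Nusap1, a microtubule bundling gene, overlapped between the sexes with female and male means of 99.9 ± 19.3 and 122 ± 28.2 normalized reads (mean ± SD).

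All 10 genes of cyclins, mitotic kinases and their regulators had negative fold changes, from -0.67 (Birc5) to -0.11 (Ccnb2), and 0 passed in limma. An unadjusted limma p under 0.05 was found for 6 of the 10 and for 16.0% of all genes. Foxm1, the transcription factor of the G2 and mitotic genes, was at 98.0, 76.6, 57.5 and 79.2 in females and 96.1, 108, 136 and 91.7 in males. Birc5, the survivin subunit of the chromosomal passenger complex, was at 52.4, 53.3, 28.7 and 25.6 in females and 48.5, 79.2, 75.9 and 47.1 in males. It had the widest range of all members, 3.10 times from female 4 to male 3. The kinase of that complex, Aurkb, was at 39.8, 42.7, 25.6 and 40.2 in females and 43.0, 55.9, 67.3 and 53.1 in males. Aurkb showed no overlap, while Birc5 and Foxm1 did: female 1 was above male 5 in both. Cdc20 was at 109, 113, 96.9 and 96.2 in females and 99.8, 138, 171 and 105 in males, where male 3 and male 4 alone were above the females.

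The B-type cyclins had the smallest fold changes among these regulators. Ccnb1 and Ccnb2, the B-type cyclins of CDK1, had log2 fold changes of -0.18 (95% interval -0.63 to 0.28) and -0.11 (-0.54 to 0.31). Ccna2, the A-type cyclin, had -0.37 and shares 12.5% of its exon bases with Exosc9 on the opposite strand. Ccnb2-ps, a transcribed copy of Ccnb2, was counted at 89.6 normalized reads on average, so the split of reads between them is uncertain. Cdk1 ran from 61.8 to 82.4 in females and from 71.2 to 106 in males. The Polo kinase gene Plk1 ran from 41.7 to 57.2 in females and from 54.9 to 92.1 in males, and Aurka, the spindle pole kinase, from 55.3 to 70.6 and from 68.8 to 79.2. Each of the 3 kinases overlapped between the sexes.

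Among kinetochore genes, Cenpf went against the rest. It was at 2124, 2427, 2242 and 1738 in females and 1944, 1952, 1492 and 1924 in males, lowest in male 4, where most mitotic members were at or near their highest. Its log2 fold change was 0.22 (95% interval -0.068 to 0.51, limma adjusted p = 0.445). It was the one positive value among the 28 mitotic members. The other kinetochore and checkpoint genes were lower in females on average. Bub1b, which encodes the checkpoint protein BUBR1, was at 145, 111, 105 and 107 in females and 135, 188, 157 and 157 in males (log2 fold change -0.44, SE 0.14, limma adjusted p = 0.140). Bub1, Ttk and the kinetochore motor gene Cenpe had log2 fold changes of -0.35, -0.47 and -0.30. Ttk had no overlap between the sexes, at 11.7 to 17.5 in females and 18.1 to 25.6 in males, a level at which counting error is large.

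The 3 genes of chromosome structure had the most negative median among the roles, at -0.52. Top2a, which untangles the copied DNA strands, was at 294, 242, 174 and 172 in females and 283, 374, 415 and 270.3 in males. Female 3 and female 4 were the 2 lowest hearts and male 3 and male 4 the highest, while female 1 lay above male 1 and male 5. The means were 220.4 ± 59.0 and 336 ± 70.4 (log2 fold change -0.62, SE 0.20, limma adjusted p = 0.189). In the authors' deposited table Top2a was lower in females at an adjusted p of 0.031. Mki67, which coats mitotic chromosomes, likewise had its 2 lowest hearts in female 3 and female 4 and its highest in male 3 and male 4, at 415, 329.7, 215 and 299.6 in females and 340.4, 501, 500.3 and 404 in males. Ncapg, a condensin subunit, had a log2 fold change of -0.52 (limma adjusted p = 0.255) and shares 13.4% of its exon bases with Lcorl on the opposite strand.

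Of the 6 cytokinesis genes, Prc1 and Kif23 were lower in every female heart than in any male heart. Prc1, which crosslinks the microtubules of the midzone, was at 154, 150.3, 127 and 119 in females and 166, 219, 197 and 175 in males (log2 fold change -0.46, SE 0.12, limma adjusted p = 0.102). Kif23, a motor of the centralspindlin complex, was at 125, 113, 82.0 and 118 in females and 135, 182, 171 and 128 in males (log2 fold change -0.49, SE 0.16, limma adjusted p = 0.160). In the authors' deposited table Prc1 was lower in females at an adjusted p of 0.0324. The partner of Kif23 in that complex, Racgap1, had a log2 fold change of -0.10 and its lowest value in male 5. Kif20a, Ect2 and Anln, a motor, the activator of RhoA and a scaffold of the contractile ring, had -0.11, -0.20 and -0.16. Prc1 shares 11.1% of its exon bases with Rccd1 and Kif20a 29.3% with Cdc23, both on the opposite strand. Cdc23 had 2513 and Kif20a 148 normalized reads on average, so the source of Kif20a reads is uncertain. Rccd1 had a log2 fold change of 0.02.

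Over the whole set, 33 of the 38 members had negative fold changes in females, with a median of -0.28 against 0.0023 over all genes. The split by phase was 27 of 28 negative for the mitotic members (median -0.38) and 6 of 10 for the S phase members (median -0.05). In limma 1 member fell and 0 rose, where 1.16% of all genes were called, 0.687% lower and 0.475% higher. An unadjusted p under 0.05 was found for 14 of 28 mitotic and 2 of 10 S phase members, and for 16.0% of all genes. Of the mitotic members, 6 had lower values in females without overlap (Hmmr, Aurkb, Ttk, Kif11, Prc1 and Kif23), as did Mcm2, where 4.82% of all genes did. Cdc45, Mcm7 and Pcna had higher values in females without overlap, where 4.52% of all genes did, or 9.35% in either direction. In the authors' deposited table, Cdc45 and Mcm7 were higher and Top2a and Prc1 lower at an adjusted p under 0.05, where 2.16% of its genes with an adjusted p were higher and 2.73% lower. That p was not given for 6 members, Hmmr among them. DESeq2 on the recovered reads gave the same 4 members, with the same shares of all genes. edgeR's quasi-likelihood test called Hmmr alone, where it called 0.698% of genes lower and 0.497% higher. No member was called by limma-voom (0.676% of genes lower, 0.48% higher) or by limma with log2 total reads as a covariate (0.564% lower, 0.307% higher). Nor was one called in the fit with title numbers as a block (0.491% lower, 0.318% higher). The thresholds stated in the labels, an unadjusted p under 0.05 and a log2 fold change beyond 0.6, were passed by Birc5, Hmmr and Top2a, all lower, where 0.703% of all genes were lower and 0.798% higher.

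**Figure D2:**
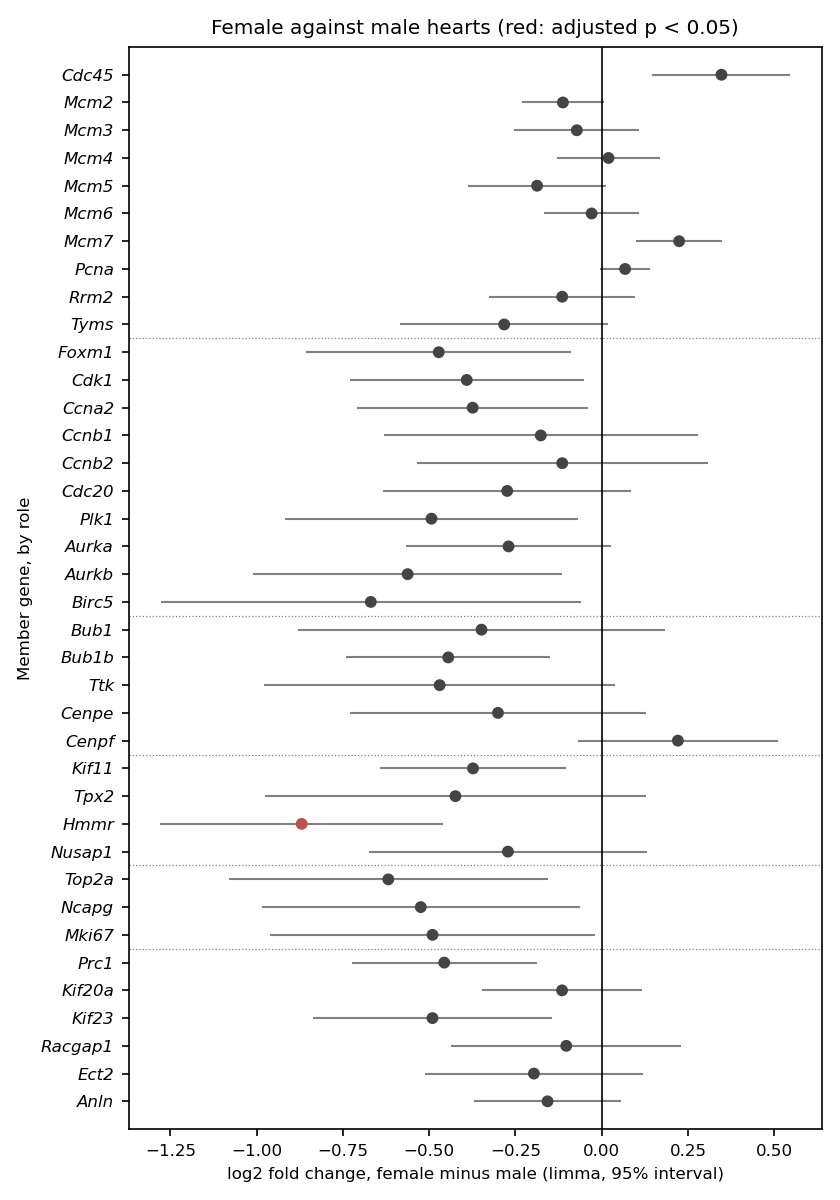
Log2 fold change of each member (female minus male, limma on log2(normalized reads + 1)) with its 95% interval, n = 4 hearts per sex, grouped by role from S phase at the top to cytokinesis at the bottom. Hmmr (red, -0.87) is the one member past the threshold, and Cdc45 (0.35), Mcm7 (0.22) and Cenpf (0.22) lie on the other side of 0.

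A score per heart summarizes each group: the mean over its genes of log2(value + 1) minus the mean of the gene over the 8 hearts. The mitotic score was 0.02, -0.12, -0.37 and -0.26 in female 1 to 4, and -0.02, 0.38, 0.39 and -0.01 in male 1, 3, 4 and 5. Male 3 and male 4 stood above all other hearts, and female 1 was close to male 1 and male 5, so the sexes overlapped. The S phase score moved much less, at 0.03, 0.0040, 0.0068 and -0.07 in females and -0.05, 0.03, 0.09 and -0.03 in males. The difference between them, S phase minus mitotic, was positive in each female heart (0.0064 to 0.37) and negative in each male heart (-0.35 to -0.02). No test was made of these scores, since the members were chosen with earlier results known. Over the 8 hearts the 2 scores had a Pearson r of 0.64 (Spearman rho 0.67), which fell to 0.08 over the 6 hearts left without the 2 farthest from the median mitotic score, so it rests on those hearts. Leaving out the extreme hearts also narrows the range of the score, and with the mean of each sex removed r was 0.78 (rho 0.79) over all 8. The mitotic score also followed depth, with r = 0.73 (rho 0.69) against log2 total reads, and the S phase score with r = 0.70 (rho 0.62). Male 3 and male 4 are the 2 deepest libraries, at 74.8 M and 75.7 M reads, and scored above male 1 and male 5 (70.2 M and 55.0 M). Likewise female 1 and female 2 (66.0 M and 66.3 M) scored above female 3 and female 4 (61.6 M and 51.7 M). The shallowest heart of each sex, female 4 and male 5, did not have the lowest mitotic score of its sex. With log2 total reads as a covariate the mitotic median went from -0.38 to -0.29 and the S phase median from -0.05 to -0.0081. The part of depth in these differences was otherwise not tested.

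**Figure D3:**
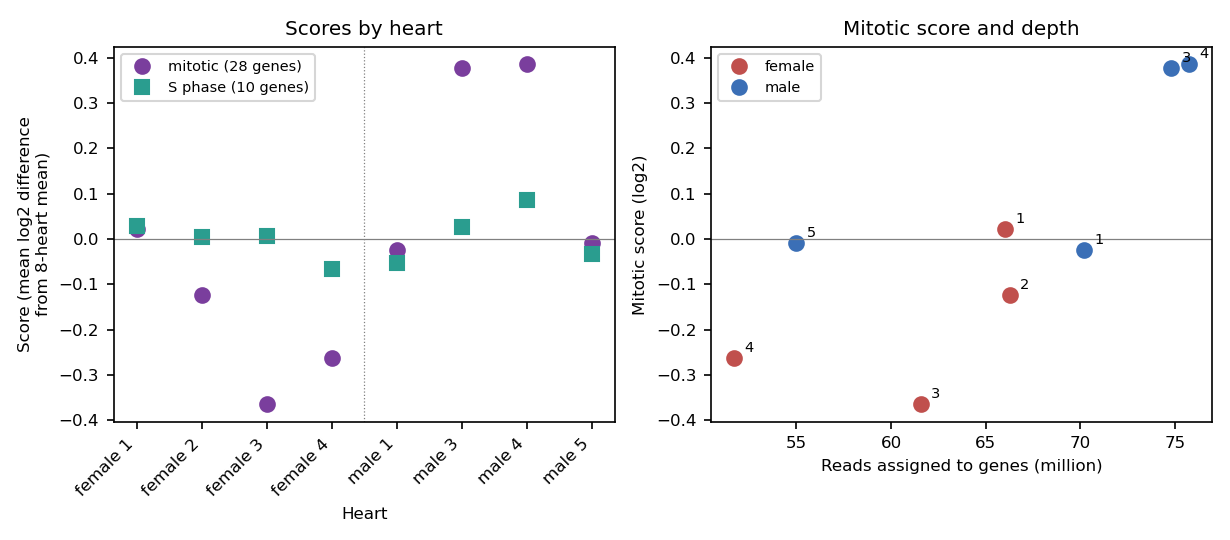
Left, mitotic (circles) and S phase (squares) scores of each heart, in log2 units from the mean over 8 hearts. Right, the mitotic score of each heart against its reads assigned to genes (M), numbered by replicate and coloured by sex. The mitotic score spans -0.37 to 0.39 and the S phase score -0.07 to 0.09, and the highest mitotic scores are in the 2 deepest libraries.

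Mitotic members varied together over the hearts, and S phase members as a group did not, though some of their pairs did. Correlations here are Pearson r of log2(value + 1) over the 8 hearts, given as a description. Hearts share sex, depth and composition, so pairs of genes are not independent. The median r was 0.73 over the 378 pairs of mitotic members, -0.02 over the 45 pairs of S phase members and 0.34 over the 280 pairs between the groups. Over all pairs of the 5587 genes at like levels it was 0.0098. An r above 0.7 was found in 56.9% of mitotic pairs, 11.1% of S phase pairs and 3.504% of pairs of genes at like levels. With the mean of each sex removed the medians were 0.61, 0.18 and 0.34, so the mitotic pairs varied together within the sexes too. Without 1 heart the mitotic median ran from 0.65 (male 4) to 0.78 (male 1).

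Single members followed the mean of the other mitotic members to different degrees. Top2a had the highest r, 0.97, followed by Prc1 and Kif23 (0.94 and 0.94), Mki67 (0.93) and Birc5 (0.92). Of the 28 mitotic members 26 were above 0.7. The exceptions were Aurka (0.62, and 0.15 with the mean of each sex removed) and Cenpf (-0.54). Within the sexes the spread of Aurka (SD 0.12 in log2) was below its counting error (0.18), while that of Cenpf (0.20) was above its own (0.033). Among S phase members Mcm5 and Tyms were the closest to the mitotic mean (0.80 and 0.74), and Mcm5 had r = 0.94 with Plk1. Cdc45 (-0.66), Mcm7 (-0.42), Pcna (-0.24) and Mcm4 (-0.21) had negative values.

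Cdc45, Mcm7, Pcna and Cenpf were picked out after their values were seen. The r between Cdc45 and Mcm7 was 0.81, between Mcm7 and Pcna 0.82 and between Cdc45 and Cenpf 0.75. With the mean of each sex removed these were 0.20, 0.44 and 0.71. The negative r of Cdc45 with the mitotic mean likewise went to -0.045, that of Mcm7 to 0.57 and that of Pcna to 0.80, while that of Cenpf went from -0.54 to -0.26. The opposite course of Cdc45, Mcm7 and Pcna was thus one between the sexes. Within the sexes the spread of Pcna (SD 0.029 in log2) was below its counting error (0.031), and that of Cdc45 (0.102) was about equal to its own (0.101). The r of both genes within the sexes are therefore uncertain.

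**Figure D4:**
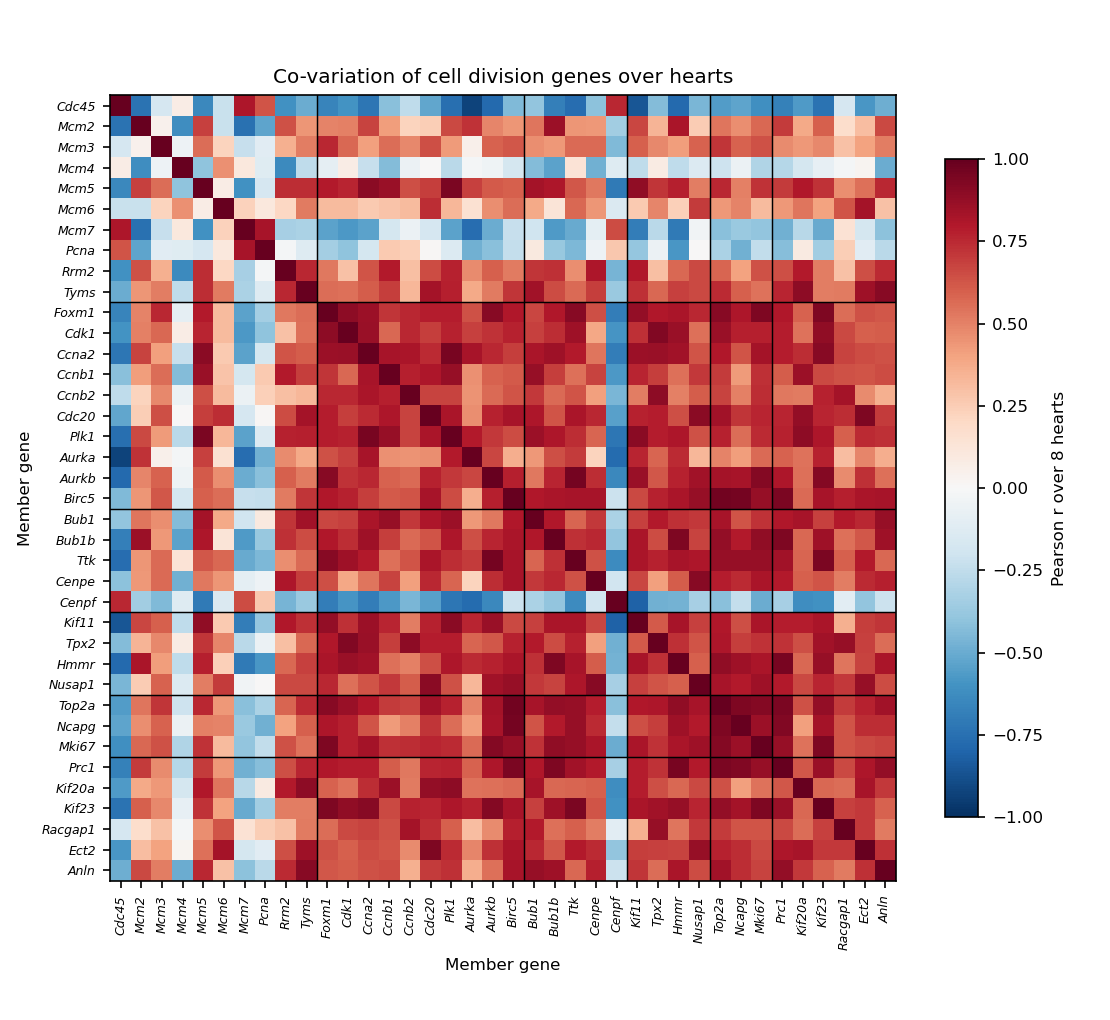
Pearson r over 8 hearts between all pairs of members, in the order of roles used above, with black lines between roles. Mitotic members form a block of positive values (median 0.73) crossed by the blue stripe of Cenpf, and S phase members in the upper left show a mix of signs (median -0.02).

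The spread over all 8 hearts, sex difference included, was larger than counting error for 36 of the 38 members, Ttk and Ect2 being the exceptions. For some the margin was small, as for Aurka (SD 0.185 in log2 against 0.179), Anln (0.121 against 0.117) and Kif20a (0.127 against 0.120). The share of all genes with a spread above counting error is not given here. The standard deviation of log2(value + 1) over the 8 hearts had a median of 0.31 for mitotic and 0.12 for S phase members, and counting alone would give 0.15 and 0.07. Since low genes spread more, each member was set beside the genes of like mean level, in 10 classes. Above the median spread of those genes were 22 of the 28 mitotic and 4 of the 10 S phase members. Mki67 spread more than 98.4% of genes at its level, Top2a more than 97.9%, Cenpf more than 96.5% and Birc5 more than 96.0%. Mcm2 and Rrm2 spread more than only 15.6% and 17.6%. Within the sexes the median spread was 0.26 for mitotic and 0.10 for S phase members, and it was below counting error for 7 members (Mcm2, Pcna, Aurka, Ttk, Hmmr, Ect2 and Anln).

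Other genes of the pathway, from lists of known genes of each process, were also mostly lower on average in females. Of 52 further mitotic genes in the table, 49 were negative (median fold change -0.34 in log2), and 0 rose or fell in limma. Spag5, Ube2c, Kif18a and Kif22, which act on the spindle, on protein breakdown at mitotic exit and as chromosome motors, had the smallest p, with log2 fold changes of -0.51, -0.51, -0.44 and -0.55 (limma adjusted p = 0.154 to 0.176). Of 50 further S phase genes, 33 were negative with a median of -0.11, and 1 passed. Rpa2, a subunit of the protein that covers single-stranded DNA, rose in females: the 4 female hearts averaged 914 ± 18.9 and the 4 male hearts 785 ± 31.4 (SD), a difference of 0.22 in log2 (limma adjusted p = 0.0481), as Cdc45 and Mcm7 were higher there without passing. Pola2, Rad51ap1 and Tk1 had -0.23, -0.71 and -0.28 and did not pass. The scores of these lists followed the mitotic score over the 8 hearts with r = 0.98 for the mitotic and 0.90 for the S phase list. The calls of Rpa2 and of the genes below were not followed under the alternatives.

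Genes that govern entry into the cycle mostly did not pass. Of 13 genes of G1 entry and program regulation, Ccnd1, cyclin D1, fell in females: the 4 female hearts averaged 2311 ± 243 and the 4 male hearts 3276 ± 315 (SD), a difference of -0.50 in log2 (limma adjusted p = 0.0399), and its r with the mitotic score was 0.91. Ccnd2, cyclin D2, went the other way at 0.12 without passing. The 16 genes that restrain the cycle had 0 calls in limma and a median of -0.01. The smallest p were those of Meis1, a regulator known to hold heart muscle cells out of the cycle (0.16, limma adjusted p = 0.0851), and of the inhibitors Cdkn2d and Cdkn1b (0.19 and 0.10). Their r with the mitotic score was -0.71, -0.61 and -0.77. Other genes of this list went the other way, and the score of all 16 had r = 0.65 (0.42 with the mean of each sex removed).

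Markers of cell types that could hold the dividing cells were set beside the mitotic score. Macrophage markers moved with it most closely. All 10 were in the table, all 10 had negative fold changes (median -0.34) and 3 fell: C1qa, Csf1r and C1qb, by 0.41, 0.36 and 0.39 on the log2 scale (limma adjusted p = 0.0359, 0.0481 and 0.0493). Their summed level ran from 14213 to 16603 normalized reads in females and from 17491 to 21558 in males, without overlap, and no marker was at 0 in any heart. The r of the macrophage score with the mitotic score was 0.96, and 0.93 with the mean of each sex removed. Its value was highest in male 3 and male 4 (0.26 and 0.32) and lowest in female 3 and female 4 (-0.28 and -0.24), the same 4 hearts as for the mitotic score. The part of these cells in the result was not tested.

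The other marker lists had lower r over the 8 hearts, and for each the r with the mean of each sex removed follows in parentheses. The 8 endothelial markers, all above 0, had a summed level of 62814 to 68312 in females and 62579 to 69852 in males, and an r of 0.73 (0.76) with the mitotic score, with list scores no larger than 0.06 in size. The 6 endothelial tip cell markers summed to 2416 to 2479 in females and 2643 to 3039 in males, with r = 0.75 (0.51) but a Spearman rho of 0.36. Of the 6, 4 had negative and 2 positive fold changes. Apln, a vascular peptide hormone gene, fell (-0.34, limma adjusted p = 0.0211), while Esm1 went the other way without passing (0.33, limma adjusted p = 0.300). For the 8 fibroblast markers r was 0.43 (0.85), so within the sexes they too followed the mitotic score. One of them, Lum, an extracellular matrix gene, rose (0.30, limma adjusted p = 0.00285), in a list with 5 positive and 3 negative fold changes (median 0.020). The 8 cardiomyocyte markers had r = -0.22 (-0.093), with 4 positive and 4 negative fold changes (median 0.015). Ryr2, the calcium release channel of heart muscle, rose (0.20, limma adjusted p = 0.0341), with means of 128251 ± 1941 in female and 111494 ± 6437 in male hearts (SD). Actc1 went the other way without passing (-0.19, limma adjusted p = 0.0796). The 8 markers of pericytes and smooth muscle had r = -0.34 (-0.19).

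Markers of thymus and blood cells had r of at most 0.23 with the mitotic score over the 8 hearts. Of 14 thymocyte and T cell markers 10 were in the table, and Rag1 and Dntt were at 0 in at least 1 heart. Their sum ran from 256 to 675 normalized reads in females and from 279.7 to 655 in males, with r = 0.23 (0.57) for the mitotic score and 0.68 for the S phase score. Male 4 held the most Dntt, 43.5 normalized reads, and also the highest S phase score. The list as a whole did not single out male 4. The score of the list was highest in female 2, whose S phase score was 0.0040, with male 4 next. The part of thymus in the S phase score was not tested. The 6 B cell markers had r = 0.06 (0.15) and the 6 red cell markers in the table, of 8 listed, r = 0.23 (0.30).

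**Figure D5:**
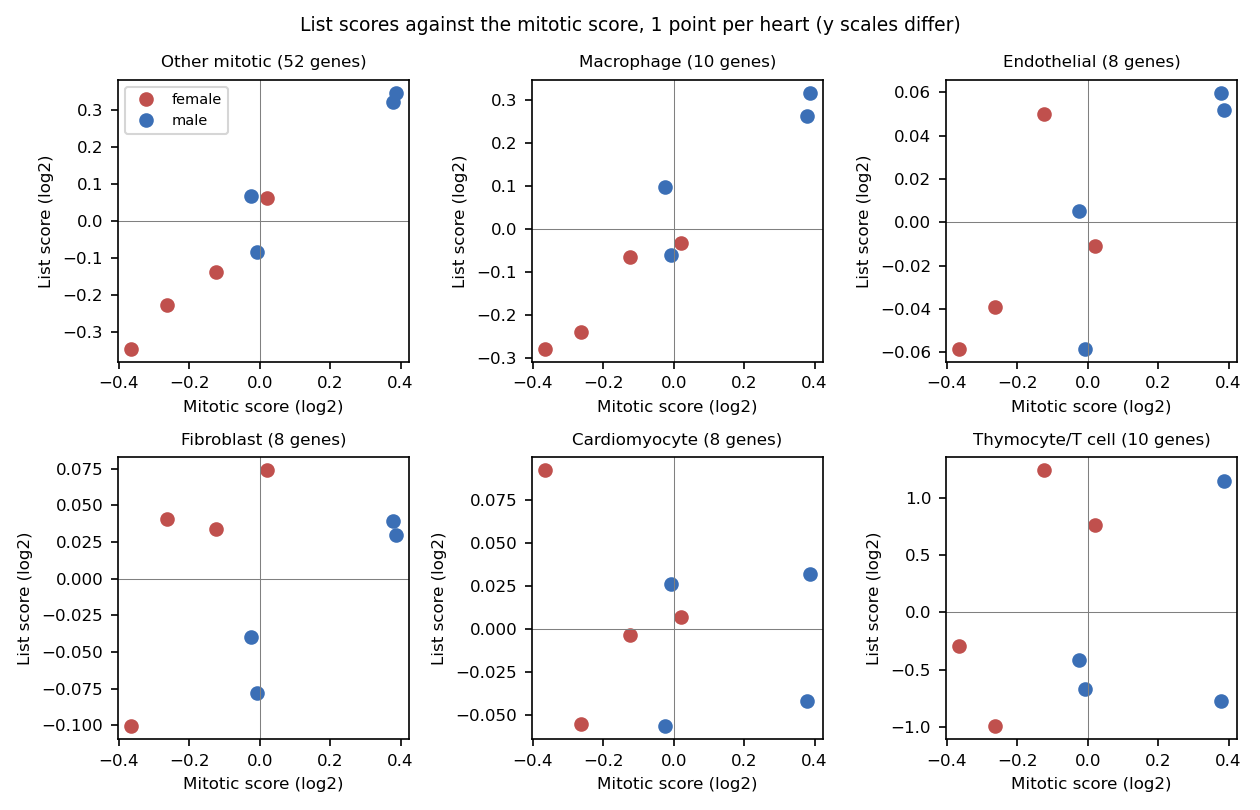
Score of 6 gene lists (mean log2 difference from the 8-heart mean, y axes differ in scale) against the mitotic score, 1 point per heart, coloured by sex. Other mitotic genes and macrophage markers rise along the diagonal (r = 0.98 and 0.96), while cardiomyocyte markers (r = -0.22) and thymocyte and T cell markers (r = 0.23) do not.

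The genes outside the set that followed the mitotic score most closely were mostly not on the lists of cell division. They were ranked by Pearson r over the 8 hearts among 16071 genes with a mean of at least 20 normalized reads. The first 5 were Smad1 (r = 0.99), Nrros (0.98), Il2rg (0.98), Lrrc25 (0.97) and Sod3 (0.97). The first 15 also held the macrophage marker C1qc (0.96), the kinetochore gene Knl1 (0.96), Oas2, Gm26740, Ripk3, Zfp385a, Cbr2, Stx8, Lrrk1 and Aplnr. Among all ranked genes 7.58% had an r above 0.7, as had 28 of 47 other mitotic genes and 10 of 48 other S phase genes. For the S phase score the first 5 were Nrp1 (0.96), Ska3 (0.96), Pinx1 (0.95), Nckipsd (0.94) and Lockd (0.92), and the next 10 were Irx1, Blvrb, 2610307P16Rik, Gm9754, Ube2e1, U2af1l4, Elob, Fuk, Mgam and Ctsd. Above 0.7 with it were 2.61% of genes, 4 of 47 other mitotic genes and 2 of 48 other S phase genes.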

How the data were processed

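RNA came from 8 single mouse hearts, 4 of each sex. Per the labels' protocols, tissue went into Trizol and a kit given as one for small RNA. Total RNA is named as the molecule. In the deposited table, the signal of each heart is a read count that was scaled by a size factor (0.821 to 1.17), as its values show: 100% of them are whole multiples of 1 read within 0.001 reads. The deposited log2 fold changes and p-values, raw and adjusted, are the authors' own. The genome build named is mm10, per the submitters' processing notes. For the aligner, counter, annotation and strand, nothing is stated in the labels used here.

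Female and male hearts were compared with limma 3.58.1 in R 4.3.3 (trend, robust) on log2(value + 1). The fit held all 17911 genes, each at 1 or more in at least 4 hearts. A gene was called where its Benjamini-Hochberg p was below 0.05. This scale understates the change of low genes. Labels do not say how the hearts of a sex were related, so p-values measure the spread between these samples. Exon lengths and overlaps came from GENCODE vM21. Alternatives were edgeR 4.0.16, DESeq2 1.42.0 and limma-voom on recovered reads, other pseudocounts and filters, replicate blocks, depth as a covariate and leaving out each heart. Scripts were tested on simulated data. The members and lists were chosen with earlier results of these data known. The rule for named genes took all members, every list gene that passed, up to 4 of a list with the smallest p, and the 15 genes closest to each score. Hearts of 1 sex differed from each other by 8.21 to 18.4 times sampling noise (chi-square over its degrees of freedom), so each counts as 1 replicate.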

Additional observations from a re-analysis of the deposited data

Results flagged for a closer look

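Of 76 groups (38 members in each sex, 4 hearts each), 6 held a heart whose gap to its nearest neighbour was too large a part of the whole range by Dixon's test at its 95% level. Chance flags about 1 in 20 groups. Cdc45 in male 1 was at 199 normalized reads, against 177 to 179.8 in the other hearts of that sex. Rrm2 in male 1 was at 165 normalized reads, against 201 to 204 in the other hearts of that sex. Aurkb in female 3 was at 25.6 normalized reads, against 39.8 to 42.7 in the other hearts of that sex. Bub1b in female 1 was at 145 normalized reads, against 105 to 111 in the other hearts of that sex. Cenpe in male 1 was at 62.2 normalized reads, against 101 to 106 in the other hearts of that sex. Cenpf in male 4 was at 1492 normalized reads, against 1924 to 1952 in the other hearts of that sex. Male 1 accounts for 3 of the 6 hearts set apart, being high for Cdc45 and low for Rrm2 and Cenpe. Aurkb was low in female 3, where the mitotic score was lowest, and Cenpf was low in male 4, where that score was highest.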

How the results depend on the processing

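Main values were 208 genes and 1 member called. The gene count was 690 with DESeq2 and 26 with a replicate block by library code number, and ran from 77 to 516 with 1 heart left out: 77, 110 and 129 without female 2, 3 and 4, 137, 94 and 85 without male 1, 3 and 4, and 516 without male 5. Members called were 4 with DESeq2 (6 members had no adjusted p) and 3 at the thresholds stated in the labels (Birc5, Hmmr and Top2a), which 0.703% of all genes passed with lower and 0.798% with higher values in females. They were 0 with limma-voom, a pseudocount of 0.1, a filter of 1 read per M (9 members removed), total reads as a covariate and either replicate block, and 0 to 2 with 1 heart left out. At an unadjusted p under 0.05 those settings held 16, 16, 11, 9, 14 (title number) and 7 (library code) members, against 16 in the main limma fit. In the main fit 16.0% of all genes were under it. Shares of all genes in the other settings are not given here, so those counts do not show whether members stood out. Without 1 heart the median log2 fold change ran from -0.47 to -0.30 for mitotic and from -0.07 to -0.0035 for S phase members. The median r within mitotic members was 0.60 with log2 total reads regressed out, and that within S phase members was 0.18 with sex means removed. Direction held under all alternatives for 33 of 38 members. It turned for Mcm4 (-0.016 to 0.062 without 1 heart, -0.046 in the block by title number), Mcm6 (-0.070 to 0.0031 without 1 heart, 0.011 with total reads), Racgap1 (-0.23 to 0.022 without 1 heart, 0.073 with total reads), Ccnb2 (0.035 with total reads) and Ccnb1 (0.016 in the block by library code). The causes were not tested.

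Replicate numbers in the titles are shared by 3 pairs, whose deviations had correlations of 0.15, -0.04 and -0.11. Those of the library codes had 0.15, -0.04 and 0.18. So few pairs cannot tell whether hearts of the same number shared more than that number. The replicate block by title number left 145 genes, and 0 members, called. Male 1 correlated best with the female of its number in both numberings, male 5 in that of the library codes, and male 3 and 4 did not. The number of hearts, 4 per sex, and members with as few as 11 reads limit what could pass.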
